A study of Mus musculus with 24 samples.

Results

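The first 10 days of osteoblast differentiation in wild-type (WT) mouse cells were described across all genes, by setting WT day 10 (3 libraries) against WT day 0 (3 libraries), 6 of the 24 libraries of the series. The cultures were osteoblasts grown out of the skull vaults (calvariae) of newborn WT mice, with bones pooled for each of 3 independent cultures, so that a culture is a mixture of animals and of the cells their bones released. The labels give no allele or agent for WT, and name no medium. The labels call 18, 19 and 21 batch numbers, and they are used here to name the cultures. A number shared by day 10 and day 0 was taken to mean 1 culture followed over time, although no label states it, and WT libraries were compared in these pairs. Libraries of cultures from high bone mass (HBM) mice, whose mutation the labels do not give, at the same 2 days, 3 at day 10 and 3 at day 0, entered the fit to measure the spread, and their own change served as the comparison. Polyadenylated RNA was sequenced, and the values are counts of reads per gene.

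Osteoblasts arise from mesenchymal progenitors under the transcription factors Runx2 and Sp7 (osterix). They lay down a matrix of type I collagen, then express alkaline phosphatase and the acidic and calcium-binding proteins that accompany its mineralization, and some become osteocytes buried in the bone, which make sclerostin. In calvarial cultures this sequence plays out over weeks, and the cultures also hold fibroblast-like stromal cells and, often, cells of other lineages carried over from the tissue.

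The 6 WT libraries held between 34870025 and 41409307 counts. Each day 10 library had 1.34 to 1.44% of its counts on mitochondrially encoded genes, against 0.734 to 1.2% at day 0, and 2.89 to 3.15% on ribosomal protein genes, against 3.32 to 6.81% at day 0. Xist, expressed from the inactive X of female cells, had 326, 42.3 and 0 CPM (counts scaled to a common library size) in cultures 18, 19 and 21 at day 10 and 332, 18.3 and 0 CPM at day 0, so that the cultures differed in it at both days. On the first principal component of the 12 libraries of both genotypes, which carried 56.2% of the variance, WT day 10 libraries lay between 69.1 and 78.9. WT day 0 libraries lay at -98.6 and -87.6 in cultures 18 and 19 but at -17.9 in culture 21, the day 0 library that stood nearest to day 10. The HBM day 0 libraries were ordered likewise, at -103.2, -87.9 and -40.4 for batch numbers 18, 19 and 21. The WT day 0 library of culture 19 also stood apart by the cartilage collagen gene Col2a1, at 16100 CPM against 1240 and 3810 in cultures 18 and 21. The p-values rest on the spread between 3 pooled cultures of each genotype, WT and HBM, except where the 6 WT libraries alone are named. Throughout, 3 values in a row are those of cultures 18, 19 and 21, and CPM are scaled by library size but not by gene length.

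Between day 0 and day 10, 2435 of 15911 genes tested (15.3%) changed at an adjusted p under 0.05 (edgeR quasi-likelihood test, Benjamini-Hochberg adjustment): 1546 (9.72%) were higher and 889 (5.59%) lower at day 10. The counts of calls in each gene list below are to be read against these shares of 9.72% and 5.59%. The median log2 change of all genes tested was 0.0. Large changes were mostly increases: 462 genes rose and 29 fell at least 10-fold. The day 10 and day 0 levels did not overlap for 5348 of the genes tested (33.6%) and for 2171 of the 2435 called genes. A lack of overlap, where given below, is thus usual for a called gene and adds little to its call. Of the 2435 called genes, 2434 moved the same way in all 3 cultures. Leaving out 1 library of a pair also takes its partner out of the paired comparison, and the calls leaned on culture 18. Without its day 10 or its day 0 library 224 or 226 genes were called, against 1009 or 1004 without those of culture 19 and 2177 or 2164 without those of culture 21. In the 6 WT libraries alone, with the culture as a block, 1093 genes passed. Of the called genes named below, Runx1, Bglap2, Nid1, Fn1, Csf1, Hyou1, Ccnd1, Cdkn1c, Pkm, Atp5b, Ctsk and Cpa3 missed the threshold in that fit (adjusted p 0.0545 to 0.157), and Sost, Kera, Adipoq and Plin1 were not tested in it because of low counts. No gene list described below kept more than 3 of its calls in 1 direction without either library of culture 18. A set of 209 genes (1.31%) passed in the fit of 12 libraries, in each of the 6 fits with 1 WT library left out and moved the same way in 3 of 3 cultures, 168 higher and 41 lower. These are called stable below, and where another gene is named, the libraries without which its call was lost are given. The cultures differed in the size of the response: the genes called higher rose by a median log2 of 2.47, 2.25 and 1.66, and those called lower changed by -0.91, -1.03 and -0.65. Across genes, the changes of cultures 19 and 21 were the least alike (Pearson r = 0.535), against 0.73 between 18 and 19 and 0.734 between 18 and 21.

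**Figure D1:**
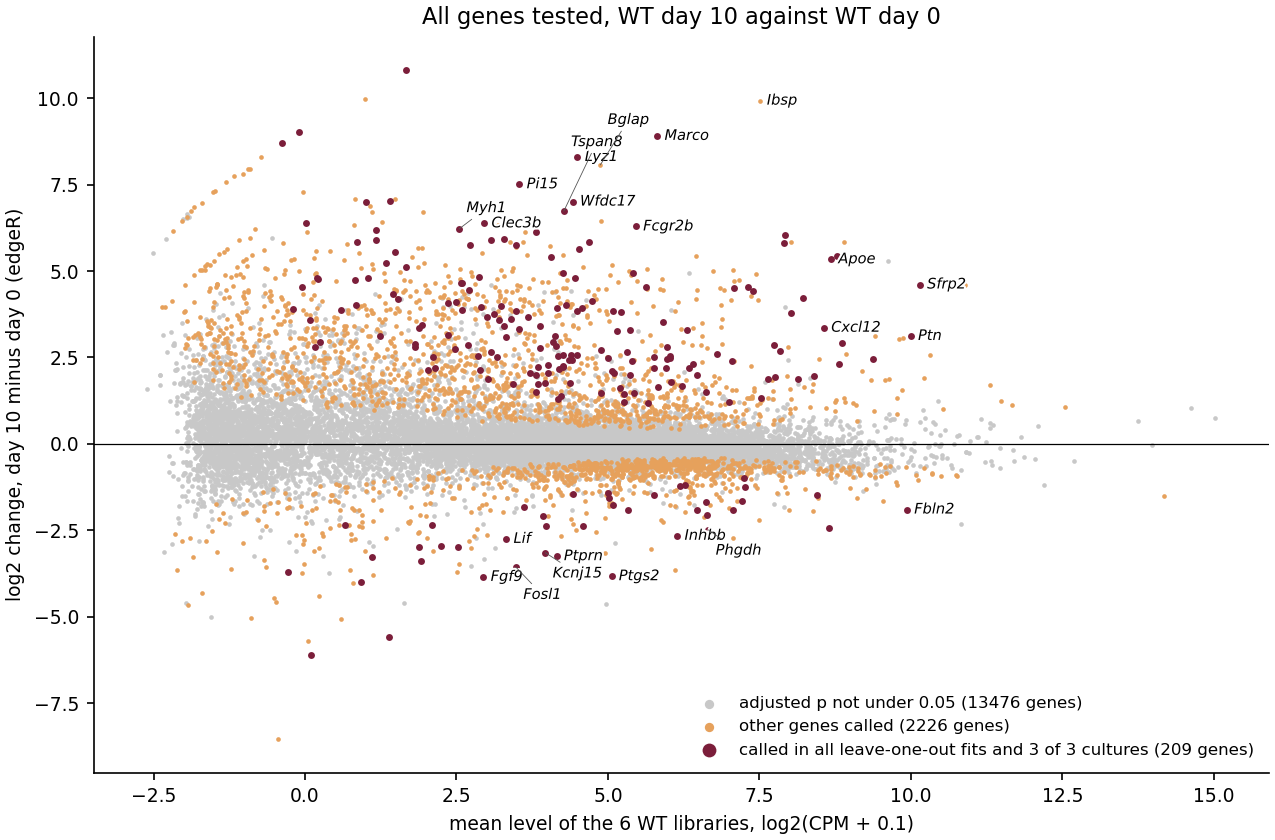
Each point is 1 of the 15911 genes tested, with the mean of the 6 WT libraries on the x axis (log2 of CPM plus 0.1) and the edgeR log2 change, day 10 minus day 0, on the y axis. Dark points are the 209 stable genes, orange points the other called genes and grey points those not called. The increases reach further from 0 than the decreases.

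Some genes of bone mineral and of the osteocyte, Ibsp, Bglap and Dmp1 among them, were low at day 0 and rose, while Runx2 and Sp7 did not pass the test. Of the 23 bone matrix and mineral genes tested, 6 rose, 1 fell and 16 did not pass, and the median log2 change was 1.04. Of the 7 osteocyte genes tested, 2 rose, Dmp1 and Sost, and 5 did not pass. Ibsp, which encodes the mineral-binding bone sialoprotein (chr5:104299171-104311469, plus strand, mm10), had 215, 851 and 20.2 CPM at day 10, against 0.14, 0.26 and 0.279 CPM at day 0. Every day 10 library was far above every day 0 library, but culture 21 reached a small part of the level of culture 19. Its log2 change was 9.93 ± 1.33 (SE from the fit of 12 libraries of both genotypes, adjusted p = 0.00831, edgeR). The call was lost without the day 10 or day 0 library of culture 18 (adjusted p = 0.0636 and 0.0646). Osteocalcin, the calcium-binding protein of Bglap, had 34.8, 138 and 1.84 CPM at day 10, against 0.0936, 0.0866 and 0.223 CPM at day 0 (log2 change 8.07 ± 1.38, adjusted p = 0.0144). This call too was lost without culture 18 (0.106 and 0.105 without its day 10 and its day 0 library) and without culture 19 (0.0577 and 0.0575). Its near-identical neighbour Bglap2 had almost the same levels, 40.4, 130 and 4.48 CPM at day 10 against 0.234, 0.0577 and 0.81 CPM at day 0, and reads of the 2 copies may have been divided between them in the counting; its call (adjusted p = 0.045) was lost without either library of culture 18 (0.208 and 0.207) or of culture 19 (0.116 in both fits). The matrix vesicle lipase gene Smpd3, the osteoblast membrane gene Ifitm5 and Dmp1, an acidic protein of osteocytes, rose as well, with log2 changes of 5.17 ± 1.09, 4.65 ± 0.86 and 4 ± 1.08 (adjusted p = 0.0254, 0.0178 and 0.0495). Without either library of culture 18 or of culture 19, none of these 3 passed (0.0608 to 0.212). The sclerostin gene Sost had no count at day 0 and 0.661, 10.7 and 0 CPM at day 10. Its day 10 mean was at least 47.3-fold above a floor of 3 counts per day 0 library; culture 19 supplied most of it, and the call (adjusted p = 0.0196) was lost without either library of culture 18 (0.0659 and 0.0663) or of culture 19 (0.0826 and 0.0783). Sost lay higher in 2 of 3 cultures, and it did not pass in DESeq2 (0.23) or in edgeR over the 12 libraries without the block (0.135). The gene that fell was Slc20a1, a phosphate importer, with 34.4, 31.4 and 30.5 CPM at day 10 against 320, 284 and 100 CPM at day 0 (log2 change -2.72 ± 0.49, adjusted p = 0.0166). Its day 10 levels lay within a narrow band below all day 0 levels; leaving out a library of culture 18 (0.108 and 0.103) or of culture 19 (0.0754 and 0.0755) ended the call.

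Several genes that mark the lineage did not pass in the edgeR fit of 12 libraries, and for most of them the call depended on the method. Alpl, the tissue-nonspecific alkaline phosphatase, had 142, 236 and 75.6 CPM at day 10 against 1.45, 3.17 and 28.3 CPM at day 0. The days did not overlap, but at day 0 culture 21 was already far above the others, and the log2 change of 4.95 ± 1.76 gave an adjusted p of 0.0998. Osteopontin (Spp1) lay lower at day 10 in every culture, at 722, 1130 and 246 CPM against 3740, 2660 and 2440 CPM at day 0, with a log2 change of -2.31 ± 0.63 and an adjusted p of 0.0511 in the fit of 12 libraries and of 0.0397 in the 6 WT libraries alone. Phex, the osteocyte peptidase that restrains phosphate wasting, had 20.8, 59 and 3.11 CPM at day 10 and 1.12, 0.808 and 1.09 CPM at day 0 (adjusted p = 0.0538). The collagen I genes had high levels at both days. Col1a1 averaged 41800 ± 10600 CPM at day 10 and 24800 ± 7870 CPM at day 0 (SD, n = 3 each; adjusted p = 0.134), and Col1a2 34000 ± 10900 and 16200 ± 3820 CPM (adjusted p = 0.0665). The adjusted p for the collagen-binding protein gene Sparc was 0.259. In DESeq2 with the same design Alpl, Spp1, Phex, Col1a1 and Col1a2 passed (adjusted p 0.00183, 0.000127, 0.00254, 0.00137 and 9.96e-05), as they did in edgeR over all 24 libraries with the culture as a block (0.0277, 0.00115, 0.000964, 0.0291 and 0.00665), while Sparc passed in neither (0.117 and 0.126). In the 6 WT libraries alone Alpl, Phex, Col1a1 and Col1a2 did not pass (0.071, 0.0586, 0.277 and 0.155).

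**Figure D2:**
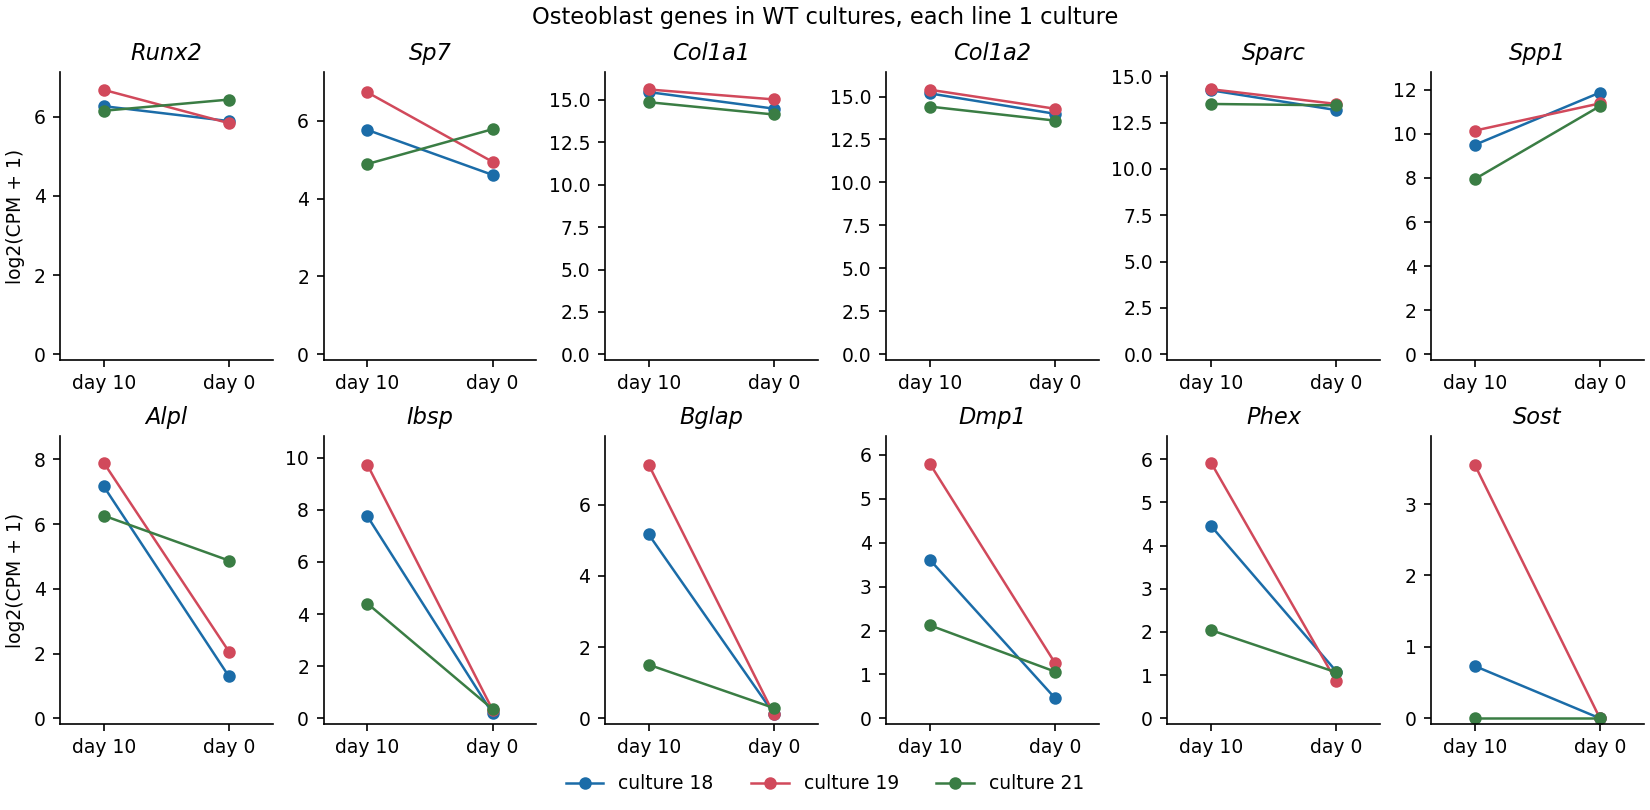
Levels of 12 osteoblast and osteocyte genes, log2 of CPM plus 1 on the y axis, with day 10 at the left and day 0 at the right of each panel and a line per culture. Ibsp, Bglap and Dmp1 are far higher at day 10 in cultures 18 and 19 and less so in culture 21; Runx2 and Sp7 are higher at day 10 in 2 cultures and lower in culture 21.

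Among the 30 bone transcription factors tested, 1 rose and 3 fell, and the median log2 change was -0.08. Runx2 had 75.7, 101 and 69.8 CPM at day 10 and 58.1, 56 and 85.1 CPM at day 0, so that it lay higher at day 10 in 2 cultures and lower in culture 21 (log2 change 0.32 ± 0.26, adjusted p = 0.436, edgeR). Sp7 was divided in the same way, with 53.3, 105 and 28.6 CPM at day 10 and 23.4, 29.8 and 54 CPM at day 0 (adjusted p = 0.509). Dlx3, a homeobox factor of osteoblasts, rose to 4.76, 17.5 and 0.777 CPM at day 10, against 0.304, 0.231 and 0.14 CPM at day 0 (log2 change 4.46 ± 0.84, adjusted p = 0.0189). Msx2, a homeobox factor of cranial osteoprogenitors, fell 4.61-fold, to 62.7, 38.5 and 99.1 CPM against 224, 370 and 290 CPM at day 0 (adjusted p = 0.0144). Runx1 was very even across cultures: 31.9, 32.5 and 31.8 CPM at day 10 against 52.4, 52.2 and 52.7 CPM at day 0, a log2 change of -0.71 ± 0.11 (adjusted p = 0.013). Sox11, a factor of immature cells, fell as well (log2 change -2.06 ± 0.39, adjusted p = 0.0199). All 4 calls were lost without either library of culture 18 (adjusted p 0.0751 to 0.124); that of Dlx3 was also lost without those of culture 19 (0.0668 and 0.066) and that of Sox11 without those of culture 21 (0.0513 and 0.0521).

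The 3 cultures did not reach the same state at day 10. All 6 bone matrix and mineral genes called higher were highest in culture 19 and lowest in culture 21, and the median ratio of the highest to the lowest culture was 26. Over all genes called higher that ratio was 2.03, and 27.6% of them were highest in culture 19 and 41.2% lowest in culture 21. Adipocyte and complement genes had another order: 5 of the 7 adipocyte markers and 8 of the 10 complement genes called higher were highest in culture 18, against 30.6% of all genes called higher. Of the 14 macrophage markers called higher, 13 were highest in culture 21, as were 9 of the 10 lysosomal genes, against 41.8% of all genes called higher. The adipokine gene Adipoq shows the contrast with Ibsp: 13, 0.743 and 0.0518 CPM at day 10. The HBM libraries of the same batch numbers were ordered alike for the genes of these groups plotted for both genotypes, except for the macrophage receptor gene Marco, and in HBM Ibsp had 1480, 2370 and 96 CPM and Adipoq 31.1, 0.853 and 0.0481 CPM at day 10. What cultures of the 2 genotypes with 1 batch number have in common is not given in the labels, and its part in this order was not tested. Some stable genes had nearly equal levels in the 3 cultures: Igf1 had 423, 463 and 435 CPM and the fibrillar collagen gene Col27a1 105, 114 and 104 CPM at day 10.

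**Figure D3:**
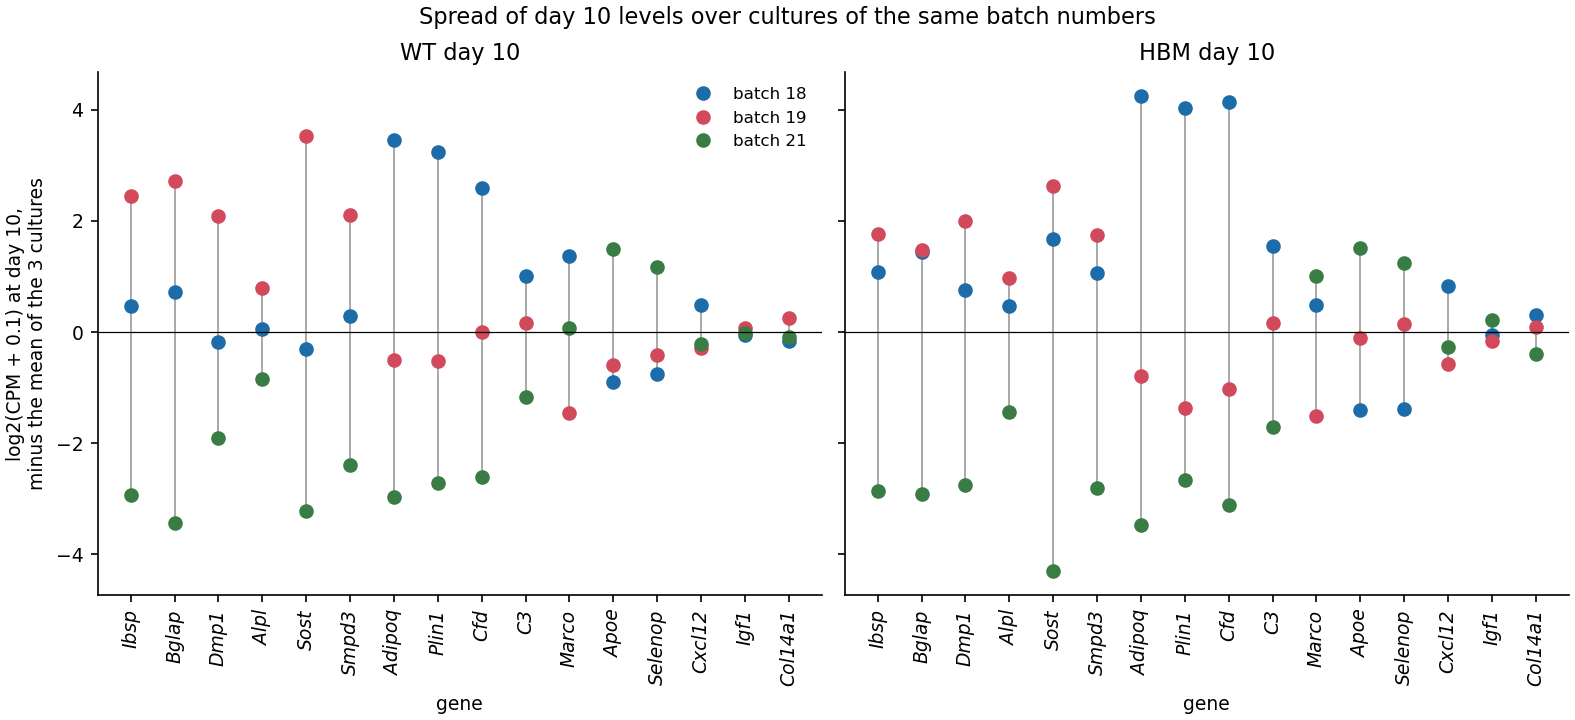
Day 10 level of 16 genes in each culture, as log2 of CPM plus 0.1 minus the mean of the 3 cultures of that genotype, for WT (left) and HBM (right). Colours are batch numbers. Bone mineral genes are lowest and Apoe and Selenop highest in batch 21, adipocyte genes are highest in batch 18, and Igf1 and Col14a1 vary less.

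The osteocalcin promoter is the textbook case of a promoter bound by Runx2, and its sequence is shown for that reason. In the window of 250 bases before and 50 bases after the annotated start of Bglap (RefSeq, GRCm38.p6, chr3:88384417-88384716, minus strand), a search on both strands for the Runx core letters TGTGGT found 1 match, which begins 132 bases before the start and is printed in capitals on the reverse strand.

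Bglap: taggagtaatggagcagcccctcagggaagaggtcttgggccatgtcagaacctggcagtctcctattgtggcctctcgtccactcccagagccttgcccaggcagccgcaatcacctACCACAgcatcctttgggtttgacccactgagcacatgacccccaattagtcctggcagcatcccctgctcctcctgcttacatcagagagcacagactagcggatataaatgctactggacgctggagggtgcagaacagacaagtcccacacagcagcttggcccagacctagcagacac

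The same 6 letters were found in 16.8% of all 32851 promoter windows and in 15.1% of the genes tested that had a window. They were found in 8 of the 17 bone matrix and mineral genes that had a window. Of these 8, 3 were called, among them Slc20a1, which fell. Of the genes tested with a window, 17.4% of those called higher, 15% of those called lower and 14.9% of those not called held them. A match is a description of the sequence only.

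Matrix genes beyond the mineral group changed in both directions. Of 12 small leucine-rich proteoglycans, which coat collagen fibrils and bind growth factors, 9 rose and none fell, with a median log2 change of 1.99. Decorin (Dcn) had 1870, 1290 and 1570 CPM at day 10, against 107, 277 and 236 CPM at day 0 (log2 change 3.02 ± 0.47, adjusted p = 0.0117, edgeR). Prelp, Ogn (osteoglycin) and Aspn (asporin) rose 4.33-fold, 3.66-fold and 2.39-fold (adjusted p = 0.0178, 0.0214 and 0.0167). No day 10 level of these 4 overlapped a day 0 level, yet none of the 9 calls held without the day 10 or day 0 library of culture 18 (0.0575 and 0.0596 for Dcn); 3 of the 9 held without either library of culture 19, and 6 without either of culture 21. Keratocan (Kera) had no count at day 0 and 0.846, 0.421 and 0.233 CPM at day 10, at least 6.23-fold above a floor of 3 counts per day 0 library (adjusted p = 0.0232, also lost without either library of culture 19, 0.0596 and 0.0595).

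Fibrillar and fibril-associated collagens rose in 6 of 17 cases and fell in none. Col14a1, which encodes a collagen that decorates fibrils and limits their growth, had 501, 663 and 522 CPM at day 10 and 14.6, 39.2 and 45.8 CPM at day 0. The groups lay far apart, with a log2 change of 4.22 ± 0.32 (adjusted p = 0.0022, stable). Col27a1 rose to the even day 10 levels given above, against 10.7, 12.5 and 27.5 CPM at day 0 (log2 change 2.8 ± 0.32, adjusted p = 0.00579, stable). Among 21 genes of basement membrane and network collagens, laminins and nidogens, 3 rose: Col15a1, with 92.2, 21.3 and 4.4 CPM at day 10 against 4.21, 0.693 and 0.81 CPM at day 0, and the nidogen genes Nid1 and Nid2, 2.54-fold and 2.53-fold. These 3 were lost without either library of culture 18 (adjusted p 0.054 to 0.0952).

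Other matrix genes moved both ways. In the elastic fibre and microfibril list 4 of 16 rose and 2 fell: Mfap5, a microfibril protein gene, rose to 106, 59.9 and 30.3 CPM at day 10 against 25.3, 16.6 and 7.32 CPM at day 0 (log2 change 1.99 ± 0.21, adjusted p = 0.0045), while fibulin-2 (Fbln2) fell to 510, 387 and 167 CPM against 3220, 1080 and 489 CPM (log2 change -1.9 ± 0.26, adjusted p = 0.00918). Both are stable, although the levels of Fbln2 overlap across cultures and separate only within each pair. Of 21 matricellular and adhesive genes, 3 rose and 4 fell. Ccn3, a matricellular regulator, reached 1430, 565 and 507 CPM at day 10 against 98.5, 93.9 and 100 CPM at day 0 (adjusted p = 0.0069, stable). Fibronectin (Fn1) fell to 7090, 8470 and 13000 CPM at day 10 against 23600, 19200 and 40000 CPM at day 0 (log2 change -1.51 ± 0.26, adjusted p = 0.0143), a call lost without either library of culture 18 (0.118 in both fits). Periostin (Postn) rose 2.94-fold (adjusted p = 0.0204), lost without either library of culture 18 (0.123 and 0.127) or culture 19 (0.0745 and 0.0758).

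Among 28 genes of collagen modification and crosslinking, 3 rose and 3 fell, against 9.72% and 5.59% of all genes tested. The stable increases were Adamts2, the protease that removes the amino-terminal propeptide of procollagen, and Tll1, a tolloid-like protease related to the enzyme that removes the carboxy-terminal one. Adamts2 had 445, 312 and 189 CPM at day 10 and 102, 67.7 and 76.9 CPM at day 0 (log2 change 1.88 ± 0.21, adjusted p = 0.00547, edgeR). Tll1 had 119, 202 and 103 CPM at day 10 and 32.6, 26.5 and 24 CPM at day 0 (log2 change 2.3 ± 0.27, adjusted p = 0.00641). Loxl3, a lysyl oxidase relative that crosslinks collagen, fell to 179, 172 and 198 CPM against 416, 654 and 485 CPM at day 0 (adjusted p = 0.00828, stable). The days did not overlap for any of these 3. Of 28 matrix proteases and inhibitors, 6 rose and 3 fell. Mmp16, a membrane-type matrix metalloproteinase, rose to 128, 68.7 and 126 CPM at day 10 against 46.4, 33.2 and 55.9 CPM at day 0 (adjusted p = 0.0141), a call lost without either library of culture 18 (0.0958 and 0.095) or the day 0 library of culture 19 (0.0504). Of 18 integrins, 5 rose and 1 fell. Itga10, a collagen receptor subunit, rose 5.75-fold (adjusted p = 0.0116), and Itga3, a laminin receptor subunit, fell 3.24-fold (adjusted p = 0.0131). Neither passed without either library of culture 18 (0.0714 to 0.0878), Itga3 not without those of culture 19 (0.0602 and 0.0611) and Itga10 not without the day 0 library of culture 19 (0.0502). Of 18 contractile genes 1 rose and 1 fell, no more than the shares of all genes tested. Mylk, the myosin light chain kinase gene, was the 1 that rose, to 221, 214 and 140 CPM at day 10 against 34.1, 28.5 and 30.3 CPM at day 0 (log2 change 2.6 ± 0.2, adjusted p = 0.0022, stable).

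Among the secreted Wnt modulators, which tune the pathway that drives bone formation, 6 of 15 rose and 1 fell (median log2 change 1.84). The stable ones were the frizzled-related inhibitor genes Sfrp2 and Sfrp1. Sfrp2 had 3130, 1560 and 1810 CPM at day 10, against 30.2, 135 and 126 CPM at day 0 (log2 change 4.61 ± 0.69, adjusted p = 0.011, edgeR), and Sfrp1 640, 335 and 151 CPM against 62.7, 72 and 18.5 CPM (log2 change 2.87 ± 0.26, adjusted p = 0.00288). Neither overlaps between the days. Dkk1, an inhibitor that binds the LRP co-receptors, rose further by fold from a lower level, to 1.4, 10.7 and 0.104 CPM at day 10 against 0.0468, 0.0289 and 0 CPM at day 0 (log2 change 6.7 ± 1.14, adjusted p = 0.0143), lost without either library of culture 18 (0.0636 and 0.0646) or of culture 19 (0.0853 and 0.0827). Sost, given above, belongs to this list too. Of 29 Wnt ligands, receptors and readouts, 5 rose and 1 fell. Wnt16, a ligand known to limit bone resorption, had 4.86, 9.14 and 3.96 CPM at day 10 and 0.632, 1.3 and 0.503 CPM at day 0 (log2 change 2.9 ± 0.25, adjusted p = 0.00232, stable). Lgr5, a receptor for R-spondins, rose 12.2-fold (adjusted p = 0.0259) and the ligand gene Wnt9a fell 4.26-fold (adjusted p = 0.0216), both lost without either library of culture 18 (0.119 to 0.126), and Lgr5 also without those of culture 19 (0.0621 and 0.0626).

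BMP and TGF-beta genes changed in 14 of 32 cases, 10 higher and 4 lower, of which 3 and 2 passed without either library of culture 18. The stable increases were a BMP antagonist, an atypical ligand and TGF-beta 1. Chrdl1 (chordin-like 1) had 293, 433 and 56.7 CPM at day 10 against 11.1, 12.1 and 4.61 CPM at day 0 (log2 change 4.52 ± 0.31, adjusted p = 0.0019, edgeR). Gdf10 had 332, 315 and 302 CPM at day 10 against 5.97, 15.5 and 34.1 CPM at day 0, so that its day 10 levels agreed across cultures and its day 0 levels did not (log2 change 4.41 ± 0.52, adjusted p = 0.00591). Tgfb1 rose 2.73-fold (adjusted p = 0.00605). The stable decreases were Inhbb, the activin B chain, with 20.1, 11.4 and 28.6 CPM at day 10 against 136, 84 and 144 CPM at day 0 (log2 change -2.66 ± 0.23, adjusted p = 0.00232), and Bmpr1b, a type I BMP receptor, with 0.581, 0.272 and 0.207 CPM against 7.16, 2.31 and 1.73 CPM (log2 change -3.27 ± 0.36, adjusted p = 0.00538).

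Growth factor genes of other families showed the same mixture. In the FGF and EGF list, 6 of 26 rose and 4 fell. Fgf9, a ligand of skeletal growth, fell to 0.661, 1.02 and 1.29 CPM at day 10 against 17, 11.2 and 14.4 CPM at day 0 (log2 change -3.85 ± 0.4, adjusted p = 0.0045, edgeR), while Fgfr3, a receptor it can bind, rose to 48.9, 58.4 and 93.5 CPM against 4.42, 10.7 and 22.2 CPM (log2 change 2.65 ± 0.33, adjusted p = 0.00747). Both are stable and do not overlap. In the IGF list, 6 of 16 rose and 1 fell. Igf1, a growth factor stored in bone matrix, stood at the even day 10 levels given above against 99, 110 and 154 CPM at day 0 (log2 change 1.89 ± 0.18, adjusted p = 0.00373, stable), and the binding protein gene Igfbp4 rose 3.26-fold (adjusted p = 0.00907), lost without either library of culture 18 (0.0575 and 0.0649). Of 21 hormone and prostanoid genes, 7 rose and 1 fell. The fall was Ptgs2, the inducible cyclooxygenase, with 3.73, 4.48 and 4.53 CPM at day 10 against 49.8, 51.7 and 85.1 CPM at day 0 (log2 change -3.83 ± 0.31, adjusted p = 0.0022, stable). Receptor genes rose: Ptger1 and Ptgfr, receptors for prostaglandins, 2.66-fold and 5.81-fold, and the parathyroid hormone receptor gene Pth1r 2.18-fold (adjusted p = 0.0139, 0.0149 and 0.0309). These 3 calls were lost without either library of culture 18 (0.0967 to 0.158); that of Ptgfr was also lost without those of culture 19 (0.0507 and 0.0508), and that of Pth1r without those of culture 19 (0.0661 and 0.0664) and of culture 21 (0.0515 and 0.0521). Of 18 Notch and Hedgehog genes only Heyl, a Notch target, passed, rising 19.3-fold (adjusted p = 0.0202) and lost without either library of culture 18 (0.0666 and 0.0663) or 19 (0.0573 and 0.0564); 14 of the 18 lay higher by value, and the list's median change within a culture was 0.89, 1.94 and -0.08.

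Genes for signals to other cells gave calls in both directions. Cxcl12, the chemokine that holds blood progenitors and other CXCR4-bearing cells in the marrow (chr6:117168535-117181367, plus strand, mm10), rose to 943, 549 and 578 CPM at day 10 against 85.6, 51.9 and 62.9 CPM at day 0. The log2 change of 3.36 ± 0.15 had an adjusted p of 0.000692 (edgeR) and was stable. The cytokine gene Lif fell to 2.3, 1.49 and 3.68 CPM against 8.5, 17.7 and 25.6 CPM at day 0 (log2 change -2.75 ± 0.36, adjusted p = 0.00812, stable). In all, 4 of 23 cytokine and chemokine genes rose and 4 fell, against 9.72% and 5.59% of all genes tested. Without either library of culture 18, 1 of these rises and 1 of these falls passed. Of 11 osteoclast-regulating factors none rose and 3 fell: Sema3e 12.6-fold and Sema3a 1.95-fold, which encode semaphorins, and Csf1, the macrophage growth factor, 1.56-fold (adjusted p = 0.0189, 0.0202 and 0.0363). None of the 3 passed without either library of culture 18 (0.0926 to 0.203) or culture 19 (0.0684 to 0.0788), nor Csf1 without those of culture 21 (0.0881 and 0.0883). The other 8 factors did not pass in the fit of 12 libraries, Tnfsf11 (adjusted p = 0.465, edgeR) and Tnfrsf11b (0.221) among them. Immediate early genes fell in 4 of 24 cases and rose in none. The AP-1 gene Fosl1 had 2.91, 1.02 and 1.63 CPM at day 10 against 22.3, 20 and 18.7 CPM at day 0 (log2 change -3.57 ± 0.4, adjusted p = 0.00548), and Maff, a small Maf factor gene, 5.73, 3.84 and 6.29 CPM against 14.3, 16.9 and 25.6 CPM (adjusted p = 0.00812). Both are stable.

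Complement genes rose in 10 of 14 cases and fell in 1. Without either library of culture 18, 1 of the 10 rises passed, without either of culture 19, 3, and without either of culture 21, 8. Cfp (properdin) had 28.9, 25 and 50.8 CPM at day 10 and 3.63, 3.46 and 13.6 CPM at day 0 (log2 change 2.57 ± 0.31, adjusted p = 0.00633, edgeR, stable). C3, the central component, had 54.4, 30.1 and 11.9 CPM at day 10 and 0.328, 0.26 and 1.2 CPM at day 0 (adjusted p = 0.0214), and the serine protease gene Masp1 fell 3.74-fold (adjusted p = 0.0128). Both were lost without either library of culture 18 (0.0778 to 0.114) or of culture 19 (0.0573 to 0.0825). Interferon response and antigen presentation genes gave 1 call among 25, the rise of the histocompatibility gene H2-D1, 1 of a family of similar genes among which reads may be divided (2.87-fold, adjusted p = 0.0147, lost without either library of culture 18, 0.0904 and 0.0937). That list split by culture: its median change was 0.65 in culture 18, -1.18 in culture 19 and 1.83 in culture 21, and its summed level at day 0 was 3460 CPM in culture 19 against 959 and 1070 CPM in the others.

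Many genes of amino acid supply, tRNA charging and sterol synthesis fell. The integrated stress response raises genes for amino acid synthesis, import and tRNA charging through the factor ATF4, and sterol synthesis genes are driven by SREBP2 when cholesterol is short. Of 31 integrated stress response targets tested, 14 fell and none rose, and all 31 lay lower by value, with a median log2 change of -1.66. The aminoacyl-tRNA synthetases of the cytosol fell in 15 of 20 cases, with all 20 lower and a median of -0.88. Sterol synthesis and uptake genes fell in 15 of 22 cases, with all 22 lower and a median of -1.19. These stand against 5.59% of all genes tested called lower. Leaving out a library ends most single calls: without either library of culture 18, 1 of the 14, 0 of the 15 and 0 of the 15 passed; without either of culture 19, 6, 6 and 1; and without either of culture 21, 7, 11 and 14. In the 6 WT libraries alone 15, 6 and 6 members of these lists fell.

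The day 10 levels of these genes were nearly equal across cultures, and the spread lay at day 0. The summed level of the stress response targets was 1160, 1280 and 1200 CPM at day 10, against 5450, 2070 and 3400 CPM at day 0. For the tRNA synthetases the sums were 1550, 1600 and 1650 CPM at day 10 and 4170, 2680 and 3010 CPM at day 0. The sterol genes summed to 910, 945 and 788 CPM at day 10 and to 2010, 3150 and 1130 CPM at day 0, with culture 19 highest, whereas culture 18 was highest for the other lists. Phgdh, the first enzyme of serine synthesis, had 29.7, 29.3 and 27 CPM at day 10 against 270, 127 and 121 CPM at day 0 (log2 change -2.49 ± 0.28, adjusted p = 0.00548, edgeR), and it alone of these lists is stable. Asns, asparagine synthetase, had 21.6, 22.3 and 25.7 CPM at day 10 against 282, 76.7 and 154 CPM at day 0 (adjusted p = 0.0174). The transporter gene Slc1a4 had 29.8, 29.8 and 29.3 CPM against 162, 69.7 and 139 CPM (adjusted p = 0.012). Atf4 itself fell 2.06-fold (adjusted p = 0.0252). The glycyl-tRNA synthetase gene Gars had 112, 126 and 117 CPM at day 10 against 411, 290 and 266 CPM at day 0 (adjusted p = 0.0127), and Yars, for tyrosine, 47.8, 49.3 and 46.5 CPM against 129, 98.5 and 90.3 CPM (adjusted p = 0.0128). Of the sterol genes, Sqle (squalene epoxidase) had 51.6, 49.7 and 35.6 CPM at day 10 against 122, 163 and 60.8 CPM at day 0 (adjusted p = 0.0117). Every day 10 level of these 7 genes was below every day 0 level. Without the day 10 and the day 0 library of culture 18 the adjusted p of Asns was 0.0924 and 0.0908, and those of the other 5 not called stable lay between 0.0778 and 0.147; without those of culture 19 the call of Atf4 (0.0661 and 0.0662) was lost as well.

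**Figure D4:**
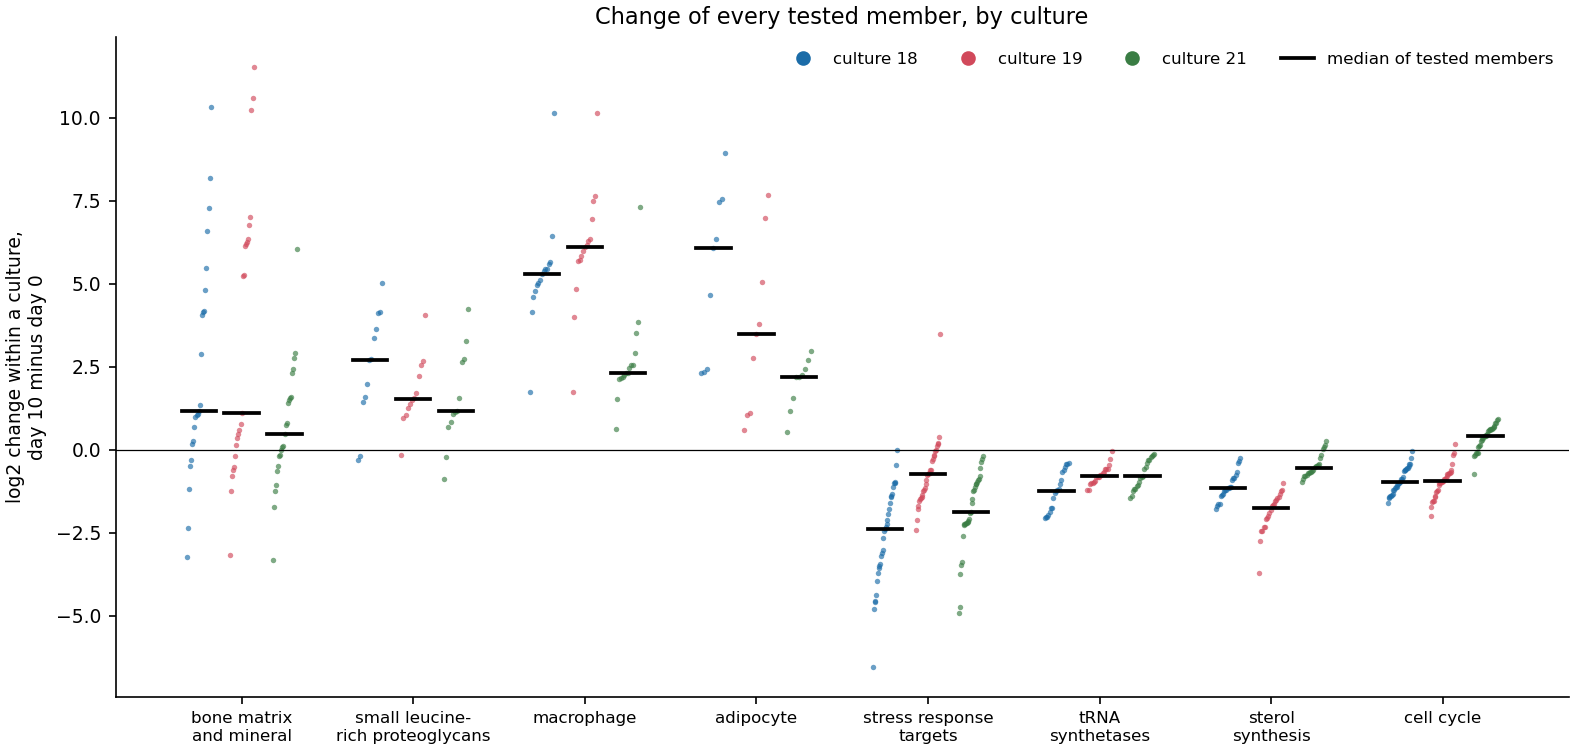
Log2 change within each culture, day 10 minus day 0, for every tested member of 8 gene lists; black bars are medians. The medians of stress response, tRNA synthetase and sterol genes lie below 0 in all 3 cultures and those of macrophage and adipocyte markers above 0, while that of cell cycle genes lies below 0 in cultures 18 and 19 and above it in culture 21.

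The letters TGATGNAA, in which N is any base, are those of the composite element that ATF4 binds with a C/EBP partner. They occurred on either strand in 3.97% of all 32851 promoter windows (RefSeq, GRCm38.p6) and in 2.87% of the genes tested that had a window. Of the 27 stress response targets with a window 9 held them, 4 of which were called. Of the 12 tRNA synthetases with a window 5 held them, and all 5 were called. The promoters of 4 called genes are shown because the element can be read in each, on the forward strand in Asns and Yars and on the reverse strand in Slc1a4 and Gars, with the match in capitals; the first base of the match lies 23 bases before the annotated start in Asns (chr6:7693160-7693459, minus strand), 4 before in Slc1a4 (chr11:20332664-20332963, minus strand), 30 before in Gars (chr6:55037751-55038050, plus strand) and 3 after in Yars (chr4:129189653-129189952, plus strand).

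Asns: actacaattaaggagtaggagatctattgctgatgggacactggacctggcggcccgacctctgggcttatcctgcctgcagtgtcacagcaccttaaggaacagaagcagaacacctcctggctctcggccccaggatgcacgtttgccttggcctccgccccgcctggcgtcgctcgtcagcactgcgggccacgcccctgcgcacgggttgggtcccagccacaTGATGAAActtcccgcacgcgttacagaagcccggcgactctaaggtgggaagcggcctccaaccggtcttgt
Slc1a4: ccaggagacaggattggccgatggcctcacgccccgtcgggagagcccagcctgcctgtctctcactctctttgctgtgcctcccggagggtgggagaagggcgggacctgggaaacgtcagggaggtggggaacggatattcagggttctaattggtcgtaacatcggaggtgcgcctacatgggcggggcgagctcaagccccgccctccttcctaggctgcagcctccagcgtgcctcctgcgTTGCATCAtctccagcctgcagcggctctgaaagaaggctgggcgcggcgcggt
Gars: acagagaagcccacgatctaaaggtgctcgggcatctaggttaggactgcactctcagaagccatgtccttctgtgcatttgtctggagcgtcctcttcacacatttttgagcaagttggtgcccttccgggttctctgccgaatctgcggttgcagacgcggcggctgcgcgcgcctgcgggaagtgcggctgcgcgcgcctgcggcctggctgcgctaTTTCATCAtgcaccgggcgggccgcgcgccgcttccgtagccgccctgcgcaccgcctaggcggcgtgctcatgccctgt
Yars: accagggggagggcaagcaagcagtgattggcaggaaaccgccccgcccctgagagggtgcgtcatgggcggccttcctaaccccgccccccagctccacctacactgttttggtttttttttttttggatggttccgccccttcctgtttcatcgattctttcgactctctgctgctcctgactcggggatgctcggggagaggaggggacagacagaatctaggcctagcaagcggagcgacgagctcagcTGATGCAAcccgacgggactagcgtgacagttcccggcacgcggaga

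Over all genes tested that had a window, the letters were found in 3.23% of genes called lower, 3.2% of genes called higher and 2.8% of genes not called. No use of these letters was measured here.

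Glycolysis and hypoxia genes fell in 4 of 22 cases and rose in none, with a median log2 change of -0.98. Slc2a1, the glucose transporter, had 17.7, 15.6 and 21.9 CPM at day 10 against 71.1, 39.6 and 45.1 CPM at day 0 (adjusted p = 0.0327, edgeR), and the glycolytic genes Gapdh and Pkm fell 2.3-fold and 2.14-fold (adjusted p = 0.0321 and 0.0362). These 3 calls were lost without either library of culture 18 (0.167 to 0.195) or of culture 19 (0.0721 to 0.0962), and that of Pkm without those of culture 21 (0.066 and 0.0664). All 27 nuclear-encoded respiratory chain subunits lay lower by value (median -0.4), but 1 passed, Atp5b, at 1.58-fold lower (adjusted p = 0.0354, lost without either library of culture 18, 0.169 and 0.161, or culture 19, 0.0769 and 0.0763). Of 11 mitochondrially encoded genes 9 lay higher by value, mt-Co1 among them, with 4930, 4680 and 5810 CPM at day 10 and 2780, 3380 and 4740 CPM at day 0 (adjusted p = 0.183). Of 24 chaperone and unfolded protein response genes, 3 fell and none rose; Hyou1, a chaperone of the endoplasmic reticulum, fell 1.76-fold (adjusted p = 0.0109; 0.0846 and 0.0818 without the day 10 and day 0 library of culture 18). Oxidative stress and metallothionein genes gave 2 rises and 2 falls among 17, with Gpx3, a secreted glutathione peroxidase, at 1500, 1570 and 587 CPM at day 10 against 77.1, 208 and 124 CPM at day 0 (adjusted p = 0.0129), lost without either library of culture 18 (0.0636 and 0.0651) or of culture 19 (0.0543 and 0.0548).

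Of the cell cycle genes 1 passed. All 31 cell cycle and DNA replication genes had a lower fitted value at day 10, with a median log2 change of -0.53, and the 1 called was Ccnd1 (cyclin D1), at 839, 495 and 905 CPM at day 10 against 1130, 911 and 1490 CPM at day 0 (adjusted p = 0.0399, edgeR), and this call was lost whichever of the 6 libraries was left out (0.0946 to 0.128). The median change of the list was -0.97 and -0.94 in cultures 18 and 19 and 0.42 in culture 21. Among 18 cell cycle inhibitors and p53 targets, 3 rose and 1 fell. Sesn1, a sestrin that restrains growth signalling, had 75.5, 102 and 130 CPM at day 10 against 22.3, 27.5 and 40.1 CPM at day 0 (log2 change 1.78 ± 0.14, adjusted p = 0.0022, stable), and Cdkn1c, which encodes the inhibitor p57, rose 7.45-fold (adjusted p = 0.0305), lost without either library of culture 18 (0.16 and 0.162) or of culture 21 (0.0838 and 0.0845).

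Markers of macrophages and adipocytes rose from low levels. In bulk RNA, more cells of a type and more RNA per cell cannot be told apart. Of 15 macrophage markers, 14 rose and none fell (median log2 change 4.55), and 13 rose in the 6 WT libraries alone. Their summed level was 3150 to 10200 CPM at day 10 against 62.6 to 1520 CPM at day 0, with culture 21 highest at both days. Marco, a scavenger receptor of macrophages, had 216, 30.3 and 88 CPM at day 10 and 0.164, 0 and 0.531 CPM at day 0 (log2 change 8.91 ± 0.85, adjusted p = 0.00354, edgeR), and Cd163 rose to 1.74, 0.867 and 2.36 CPM against 0.0468, 0.0289 and 0.14 CPM (adjusted p = 0.00339). Both are stable; without either library of culture 18, 2 of the 14 passed, without either of culture 19, 3, and without either of culture 21 all 14. Lysosomal genes, which macrophages also express, rose in 10 of 26 cases, of which none passed without either library of culture 18, 4 without either of culture 19 and 7 without either of culture 21; Hexa, a lysosomal hexosaminidase, rose 2.1-fold (adjusted p = 0.0107, 0.0672 and 0.0778 without the day 10 and day 0 library of culture 18). Of 7 osteoclast markers tested, 3 rose: Atp6v0d2, a proton pump subunit, to 1.93, 3.19 and 7.17 CPM against 0.351, 0.289 and 0.67 CPM (adjusted p = 0.00591, stable), Mmp9 21.8-fold and Ctsk 2.05-fold, both lost without either library of culture 18 (0.0955 to 0.166) or culture 19 (0.0667 to 0.0678), and Ctsk also without those of culture 21 (0.0515 and 0.0526). The calcitonin receptor gene Calcr, which defines mature osteoclasts, had 0 counts in all 6 libraries. The part of macrophages in the rises of complement and lysosomal genes was not tested.

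Adipocyte markers rose in 7 of 9 cases, with sums of 332 to 551 CPM at day 10 against 26 to 72.2 CPM at day 0. Without either library of culture 18, 1 of the 7 passed, and without either of culture 19, 4. Lpl, Cd36 and Cebpa, with means of 216, 74 and 53.8 CPM, made up most of the day 10 sums. Adipoq and Plin1 averaged 4.6 and 3.31 CPM at day 10, and both had 0.0518 CPM in culture 21, where the sum was 344 CPM. The part of other cells, such as macrophages, in these sums was not tested. Fabp4 was not called (adjusted p = 0.263, edgeR). Cebpa, a factor of fat and myeloid cells that both this lineage and macrophages use, had 51.5, 50.5 and 59.5 CPM at day 10 against 9.48, 7.39 and 13 CPM at day 0 (log2 change 2.47 ± 0.2, adjusted p = 0.00232, edgeR, stable). Plin1, which coats fat droplets, was at 9.27, 0.594 and 0.0518 CPM against 0.0234, 0.0289 and 0 CPM (adjusted p = 0.0131), and the fat cell regulator gene Pparg rose 4.1-fold (adjusted p = 0.0195). Without either library of culture 18 neither passed (0.0937 to 0.118). Leptin (Lep) and resistin (Retn) had no count at day 0 and up to 8 and 31 counts in a day 10 library. Cartilage markers gave 4 rises among 16 and none held without culture 18's libraries; they summed to 1370, 5350 and 5880 CPM at day 10 and to 1430, 17600 and 4440 CPM at day 0. The part of these cells in the changes of shared matrix genes, such as Epyc, which is on both the cartilage and the proteoglycan list, was not tested.

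Endothelial, blood and epithelial markers had low summed levels. Endothelial markers summed to 5.85 to 12.6 CPM at day 10 and 5.38 to 6.55 CPM at day 0, with 1 of 6 rising, and Cldn5 and Tie1 had no count. Of 12 blood cell markers 9 had no count in any WT library, the globin genes among them; the 1 that could be tested, the mast cell protease gene Cpa3, rose to 0.555, 0.545 and 0.414 CPM at day 10 against 0.0234, 0 and 0.14 CPM at day 0 (adjusted p = 0.0494, lost without either library of culture 18, 0.215 and 0.213, or of culture 19, 0.118 and 0.117). Epithelial markers summed to 0.207 to 0.52 CPM at day 10 and 0.419 to 0.693 CPM at day 0, and neither of the neural or glial increases (2 of 8) was called without culture 18. Skeletal muscle markers rose in 1 of 6 cases. This was Myh8, the perinatal myosin heavy chain, with 9.64, 3.44 and 42.6 CPM at day 10 against 0.0234, 0 and 1.73 CPM at day 0 (log2 change 5.93 ± 0.7, adjusted p = 0.00605, edgeR, stable). Myh1, a fast adult myosin gene in the same cluster (chr11:67200052-67224575 and chr11:67277124-67308634 for Myh8), rose likewise to 7.11, 16.8 and 9.89 CPM against 0, 0.26 and 0.251 CPM (log2 change 6.22 ± 0.69, adjusted p = 0.00548, stable). The muscle determination genes Myf5 and Myod1 had no count and at most 4 counts in a library, and the creatine kinase gene Ckm had none at day 10. Pericyte and tendon markers had sums of 1100 to 1500 CPM at day 10 and 647 to 972 CPM at day 0. Tnmd and Pdgfrb, with means of 752 and 329 CPM, made up most of the day 10 sums. The pericyte markers Rgs5, Abcc9 and Kcnj8 had day 10 means of 9.4, 1.97 and 0.363 CPM. Of the 9 pericyte and tendon markers, 2 rose and 1 fell, and the 2 stable ones went opposite ways: Tnmd (tenomodulin), a late tendon gene, rose to 674, 1020 and 561 CPM at day 10 against 122, 195 and 135 CPM at day 0 (log2 change 2.3 ± 0.15, adjusted p = 0.00188), and Scx (scleraxis), the early tendon factor, fell to 17.2, 14.8 and 16.8 CPM against 53, 49 and 43.4 CPM (log2 change -1.57 ± 0.14, adjusted p = 0.00241).

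**Figure D5:**
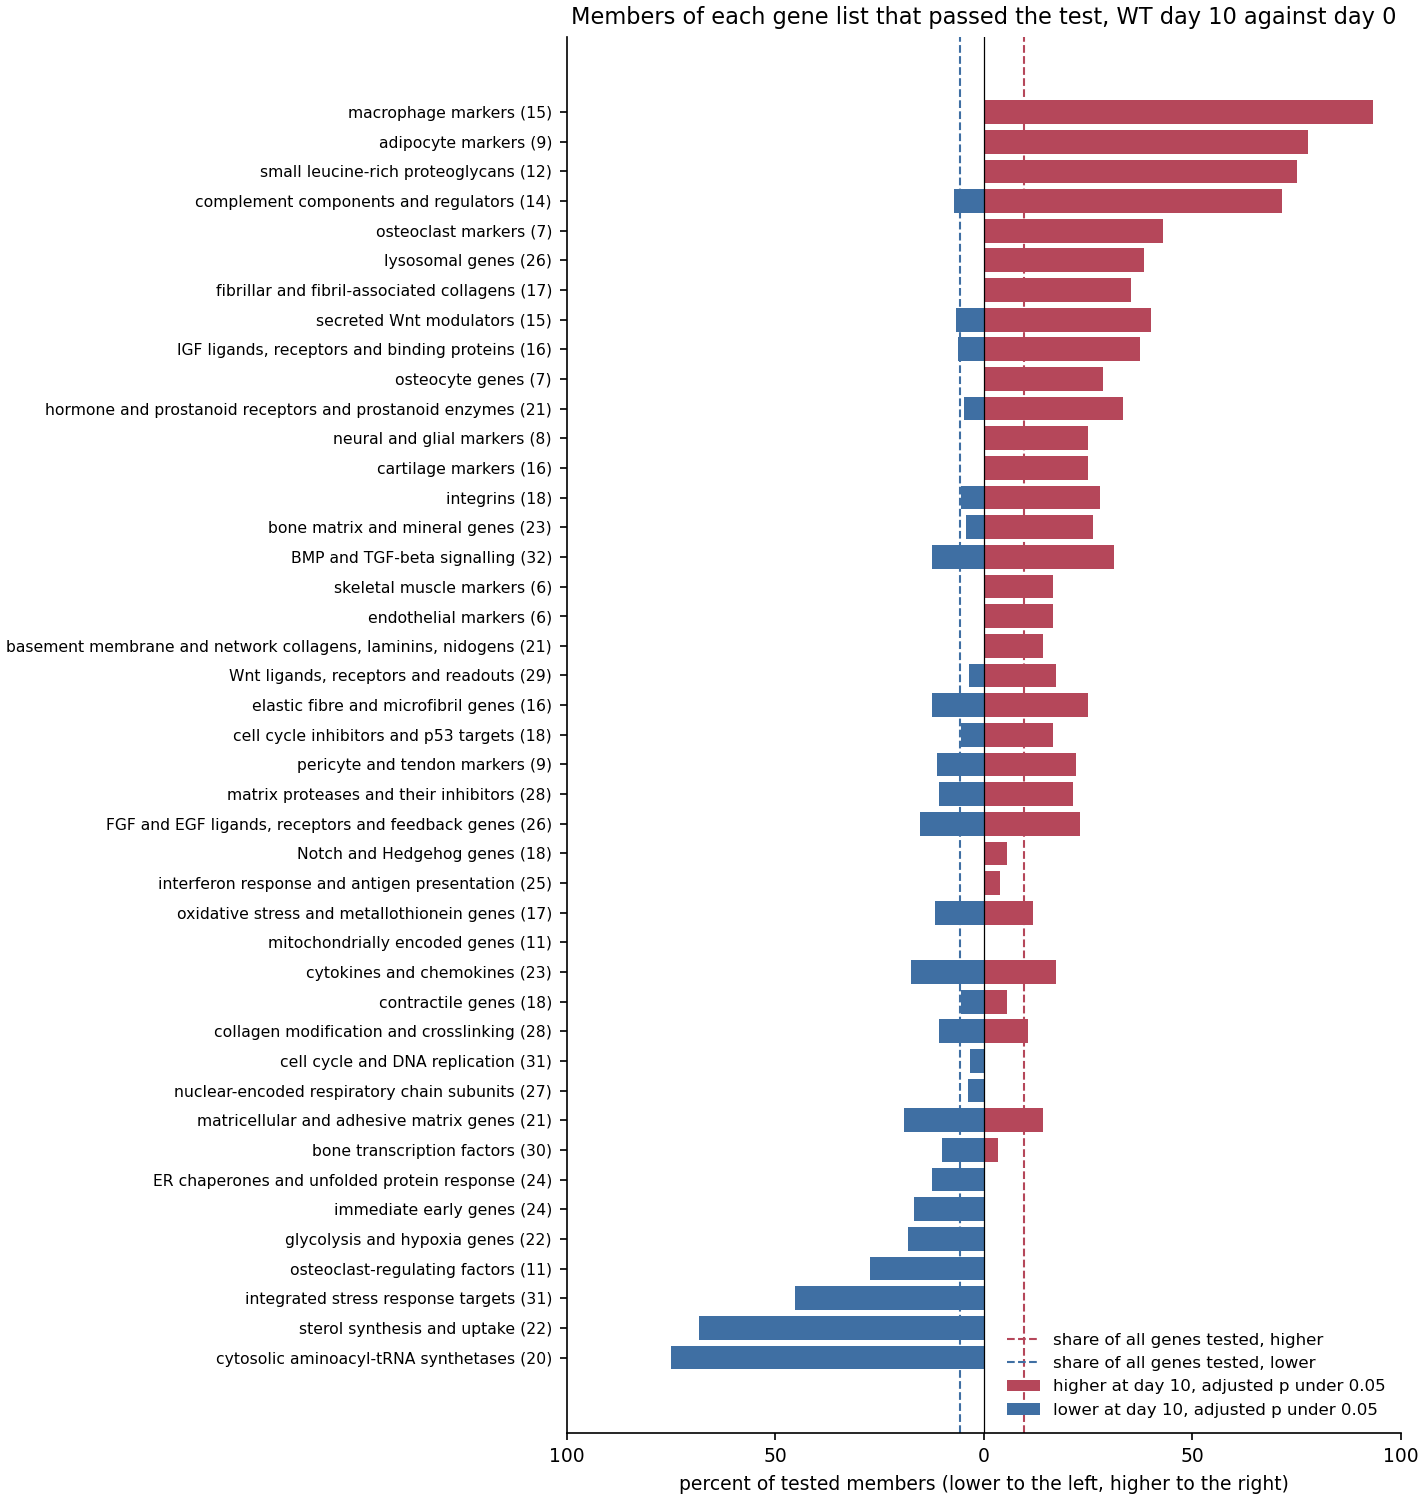
Percent of the tested members of each gene list with at least 6 of them that passed the test, higher at day 10 to the right and lower to the left, with the number tested in brackets; dashed lines give the share of all genes tested, 9.72% higher and 5.59% lower. Macrophage and adipocyte markers and small proteoglycans stand at the top, tRNA synthetase, sterol and stress response genes at the bottom.

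Among stable protein-coding genes with a mean of at least 10 CPM at 1 of the days, the 12 largest increases by fold held several genes known from macrophages. Lyz1, a lysozyme gene, had 52.3, 31.4 and 50.8 CPM at day 10 and 0, 0.0866 and 0.391 CPM at day 0 (log2 change 8.3 ± 0.66, adjusted p = 0.0022, edgeR); its close relative Lyz2 may share reads with it. Fcgr2b, an inhibitory antibody receptor, and P2ry13, a nucleotide receptor, rose 78.4-fold and 59.7-fold. Pi15, a secreted protease inhibitor, had 49.6, 13.6 and 5.54 CPM at day 10 against 0.281, 0.0289 and 0.0558 CPM at day 0 (log2 change 7.51 ± 0.42, adjusted p = 0.00148). Clec3b (tetranectin), a plasminogen-binding protein, followed the same order of cultures, with 37.4, 6.04 and 2.33 CPM against 0.187, 0.115 and 0.0838 CPM. Penk, the precursor of enkephalin peptides, reached 505, 302 and 613 CPM at day 10 against 1.24, 13.2 and 13.4 CPM at day 0 (log2 change 6.05 ± 0.85, adjusted p = 0.00935). The tetraspanin gene Tspan8 and the genes Wfdc17 and Fam198a completed them, with Marco, Myh1 and Myh8.

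By gain in CPM the leading stable genes, after Sfrp2, were Ptn, Abi3bp, Selenop, Apoe, Ccn3, Cxcl12 and Tnmd. Pleiotrophin (Ptn), a heparin-binding growth factor of bone matrix, had 2000, 2620 and 885 CPM at day 10 against 172, 303 and 135 CPM at day 0 (log2 change 3.12 ± 0.28, adjusted p = 0.00306, edgeR). Abi3bp, a matrix protein gene, rose 5.5-fold (adjusted p = 0.00513). Selenoprotein P (Selenop) and apolipoprotein E (Apoe), plasma carriers of selenium and lipid that macrophages also make, had day 10 levels of 424, 538 and 1610 CPM and of 320, 400 and 1690 CPM, against 9.83, 10.2 and 44.3 CPM and 7.42, 12.3 and 35.6 CPM at day 0. Both were highest in culture 21 at both days, as were the summed macrophage markers, and rose 43.6-fold and 40.5-fold (adjusted p = 0.0019 and 0.000692). The part of macrophages in these rises was not tested.

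Beside Fgf9, Ptgs2, Fosl1, Lif, Inhbb and Phgdh, the 12 largest decreases under the same rule included Ptprn, a protein of secretory granules, with 3.67, 3.96 and 2.43 CPM at day 10 against 40.8, 24.2 and 30.9 CPM at day 0 (log2 change -3.25 ± 0.26, adjusted p = 0.0022, edgeR), the potassium channel gene Kcnj15 and the ubiquitin hydrolase gene Uchl1, together with Lepr and Mcam. Lepr, the leptin receptor that marks marrow stromal cells, fell to 10.1, 9.71 and 4.09 CPM against 42.7, 49.9 and 26.8 CPM (adjusted p = 0.00812), and Mcam, an adhesion molecule of skeletal progenitors and vessel-wall cells, to 7.16, 3.44 and 6.73 CPM against 31.9, 15.4 and 26.3 CPM (adjusted p = 0.00379). By loss in CPM, Uck2, a pyrimidine salvage kinase, Ugcg, which makes glucosylceramide, Pmepa1, an inhibitor of TGF-beta signalling, and Nxn, a nucleoredoxin, fell 4.13-fold, 3.76-fold, 3.15-fold and 2.37-fold (adjusted p = 0.0019, 0.0022, 0.00548 and 0.00584), all without overlap between the days.

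Set against HBM cultures over the same 10 days, no gene's WT change differed at an adjusted p under 0.05 (edgeR, 0 of 15911; smallest adjusted p 0.999; 197 genes at an unadjusted p under 0.05; 0 by DESeq2). The 4 genes with the smallest p were Tnn, Sox18, Cox4i2 and Gramd2. The fitted log2 change of Ibsp was 9.93 in WT and 11.09 in HBM, that of Bglap 8.07 and 10.98, and that of Cxcl12 3.36 and 2.82. The test did not pair WT with HBM cultures by batch number. Across genes, the WT and HBM changes of a shared number correlated (Pearson r = 0.912, 0.813 and 0.856 for 18, 19 and 21). A difference test paired by batch number was not run. A miss of the threshold does not show that the genotypes change alike.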

How the data were processed

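The authors deposited a table of read counts per gene for the whole series. Per the submitters' processing notes, cutadapt 3.4, STAR 2.7.8a and featureCounts of Subread 2.0.1 were used with the mouse build mm10. For the annotation release and the strand setting: not given in the sources used here. Without a known strand setting, overlapping genes on opposite strands may share reads. Of 54232 genes, 54164 matched GENCODE M21 by identifier, which gave symbols and coordinates. Counts were used as deposited. The 12 WT and HBM libraries of days 10 and 0 were fitted with edgeR 4.0.16 in R 4.3.3 (TMM scaling, filterByExpr, quasi-likelihood test, culture as a block, a day 10 effect per genotype; 4 residual degrees of freedom), with Benjamini-Hochberg adjustment over 15911 genes. HBM libraries correlate with WT libraries of the same batch number (r 0.65 to 0.816), so these degrees of freedom are not fully independent. Between WT day 10 and day 0, deviations from the day means correlated within a number (r = 0.342, 0.257 and 0.448 for 18, 19 and 21). Between numbers they correlated by at most 0.0374. WT and HBM libraries, which are separate cultures, also correlated within a number. These correlations therefore cannot tell 1 culture followed over time from a shared batch. Alternatives were other sets of libraries, no block, DESeq2 1.42.0, other scaling and filters, and each WT library left out. Named genes are 12 core genes and, for each list, up to 6 called members with the smallest p (stable ones where there were at least 2). They also include the 12 largest stable changes each way, the 8 largest CPM gains and losses, and 4 genes of the genotype difference. Col2a1, Dkk1, Tnfrsf11b, Tnfsf11 and Xist were added after their values were seen. The comparison and the gene lists were chosen with earlier results of these data known. Some genes that the naming rule picks are not reported here.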

Additional observations from a re-analysis of the deposited data

How the results depend on the processing

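With 3 pooled cultures the number of calls depends on how the spread is estimated and on culture 18. Against 2435 genes called, 1546 higher, 889 lower and 1668 at least 2-fold, the 6 WT libraries alone with the replicate block gave 1093, 863, 230 and 1069, and without the block 472, 328, 144 and 440. All 24 libraries with the block gave 6389, 3273, 3116 and 2774, and without it 4349 called and 2332 lower. DESeq2 with the same design gave 3580, 2235, 1345 and 2156. Leaving out each WT library in turn gave 224 to 2177 called, 179 to 1416 higher, 43 to 761 lower and 224 to 1753 at least 2-fold; the lowest counts came without a library of culture 18. The 12 libraries without the block (2122 called), other size factors and both other filters (1881 to 2530 called) stayed within 1.5 times. No setting that could test it called a gene for the difference between genotypes, and none paired WT with HBM by batch number. Of the 190 named genes, 117 passed no longer without either library of culture 18, 33 in the 6 WT libraries with the block and 2 with DESeq2, while Alpl, Spp1, Phex, Col1a1 and Col1a2, not called by edgeR, passed with DESeq2 (adjusted p 9.96e-05 to 0.00254). Tnn, which was not called, had log2 changes of -0.26 to 0.19 with 1 library left out, and the sign turned, to 0.19, without either library of culture 21. The cause of these differences was not tested. Depth was similar in all 6 libraries, and genes with a few counts at day 0 have the least certain fold changes.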
